A study of Mus musculus with 4 samples.

Results

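Spots of the heart surface were looked for in Visium sections of infarcted mouse hearts. Visium is an array of barcoded spots on a slide, each of which captures the polyadenylated RNA of the small piece of tissue lying on it, so that a spot holds several cells or parts of cells rather than 1 cell. The 4 sections came from adult female Hsd:ICR (CD1) mice whose left anterior descending (LAD) coronary artery had been tied off for good, and were taken at day 1, 4, 7 or 14 after this surgery, with 1 section of 1 mouse per day. All mice had received isoflurane and buprenorphine, the hearts were fresh frozen, and no section of an uninjured or sham-operated heart was analysed here, so no value below is a response to infarction. A difference between days cannot be told apart from a difference between mice, sections or the place of the cut, and none was tested.

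The spots were chosen by their share of unique molecular identifiers (UMIs, 1 per captured RNA molecule) in 4 genes, Msln, Upk3b, Upk1b and Krt19. Of 9102 spots, 7424 had at least 500 UMIs and at most 1% of them in hemoglobin genes, and the 100 with the highest share over all sections were taken and are called epicardial spots here (members in the plots). By section, in order of day, they numbered 10, 3, 58 and 29, and the 7324 remaining spots are called other spots. Both the choice and the name of these spots rest on RNA alone, since neither their position in the section nor the tissue image was used.

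The epicardium is the outer lining of the heart, a single layer of flat mesothelial cells over a thin band of connective tissue. Mesothelium is an epithelium of mesodermal origin, and its cells carry keratins, tight junctions and surface glycoproteins together with vimentin. In the embryo epicardial cells leave the layer and become cardiac fibroblasts and mural cells, and after an infarct the layer re-expresses genes of that period, among them Wt1, Tbx18 and the retinoic acid enzyme Aldh1a2. Msln encodes mesothelin, a glycoprotein of the mesothelial surface, Upk3b and Upk1b encode uroplakins, membrane proteins first known from the bladder, and Krt19 encodes an acidic keratin.

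The shares behind the choice were small. They ran from 0.0608% to 0.613% of a spot's UMIs, with a median of 0.120%, and rested on 1 to 18 UMIs per spot, with a median of 3. The last spot taken had 1 such UMI of 1644, a share of 0.0608%, and the first spot not taken had 2 of 3388, a share of 0.0590%. Of the 100 spots, 21 had 1 such UMI, all of them on days 7 and 14, and 34 had 5 or more. Of the other spots, 310 also held a UMI of these genes, 268 of them 1 and none more than 3. The rule favours shallow spots, in which 1 UMI makes a larger share. The epicardial spots held a median of 2519 UMIs (547 to 9626) against 6998 in other spots, and the 34 with 5 or more rule UMIs 3714. How much of the lower depth came from the rule was not tested. The hemoglobin share of the epicardial spots had section medians of 0.0800%, 0.126%, 0.231% and 0.271%, in order of day.

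**Figure D1:**
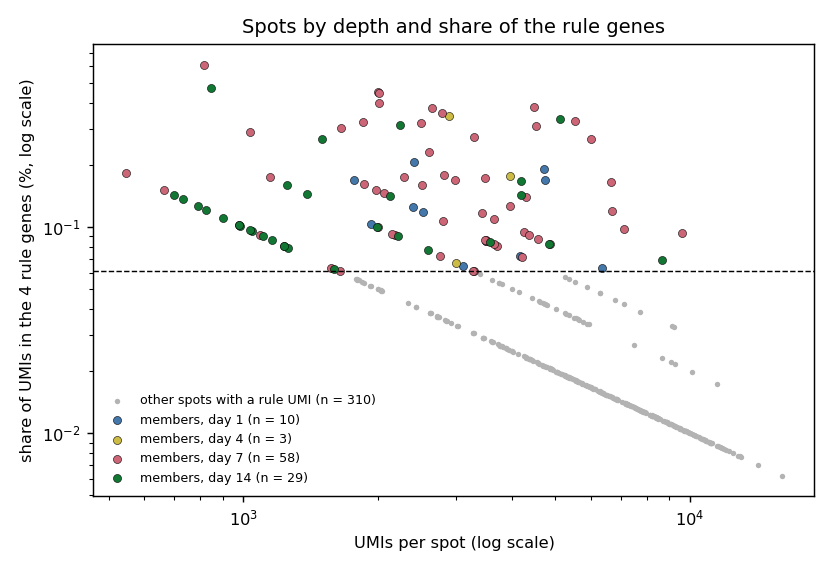
Spots with a UMI of Msln, Upk3b, Upk1b or Krt19, by UMIs per spot (horizontal, log scale) and by the percent of UMIs in these genes (vertical, log scale), with the 100 epicardial spots (members) coloured by day and the 310 other spots in grey. The members, which were chosen by the vertical axis, lie at 0.0608% and above and mostly on day 7 (58 spots) and day 14 (29 spots).

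The promoters of 3 genes of the surface layer are shown first, chosen after a search because they hold a motif whose share is given below. Upk3b is a gene of the rule, Cldn15 a tight junction claudin and Gpm6a a membrane glycoprotein. Each stretch holds 300 bases around a start of transcription, most of them before it, from RefSeq on GRCm38.p6. For Upk3b this is the start of the gene in the GENCODE annotation used below, for Cldn15 it lies 1253 bases inside the gene, and for Gpm6a it lies 175409 bases before it. Capitals mark the core of the TEAD motif, GGAATG or CATTCC on the other strand. TEAD factors are the DNA-binding partners of YAP and TAZ.

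Upk3b, chr5:136038246-136038545, plus strand: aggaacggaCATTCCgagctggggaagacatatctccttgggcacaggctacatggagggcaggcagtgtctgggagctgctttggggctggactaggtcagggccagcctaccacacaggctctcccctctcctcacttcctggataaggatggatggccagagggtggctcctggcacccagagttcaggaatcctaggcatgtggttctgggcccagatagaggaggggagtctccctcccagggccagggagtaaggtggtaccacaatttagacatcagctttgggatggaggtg
Cldn15, chr5:136967619-136967918, plus strand: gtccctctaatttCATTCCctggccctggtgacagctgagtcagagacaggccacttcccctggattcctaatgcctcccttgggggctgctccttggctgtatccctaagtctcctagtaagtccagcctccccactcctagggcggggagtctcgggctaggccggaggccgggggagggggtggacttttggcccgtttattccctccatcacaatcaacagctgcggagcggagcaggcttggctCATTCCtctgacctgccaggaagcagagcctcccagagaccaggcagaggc
Gpm6a, chr8:54779184-54779483, plus strand: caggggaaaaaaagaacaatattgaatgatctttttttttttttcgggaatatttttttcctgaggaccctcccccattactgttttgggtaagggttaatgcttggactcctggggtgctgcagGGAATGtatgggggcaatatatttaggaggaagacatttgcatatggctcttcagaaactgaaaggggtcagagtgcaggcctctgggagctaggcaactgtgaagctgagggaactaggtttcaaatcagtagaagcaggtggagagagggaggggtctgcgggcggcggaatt

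Of the 4 rule genes and the 25 mesothelial genes described below, 20 had a promoter in the table and 4 of these held the core motif, namely Cldn15, Gpm6a, Lrrn4 and Upk3b, which is 20%. Of all 27025 genes of the table, 4481 held it, or 16.6%. The match is a description of these letters and says nothing of binding. Gpm6a has a second promoter in the table, with its start 115 bases before that of the GENCODE gene, and this one does not hold the motif.

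Within the chosen spots the 4 genes were at the following levels, given as UMIs per 1000000 UMIs (CPM) of the summed spots, as a description of the choice. For days 1, 4, 7 and 14, Msln (chr17:25748613-25754378, minus strand) was at 352, 1117, 642 and 458 CPM, against 1.60 to 5.16 in other spots. Upk3b (chr5:136038496-136046487, plus strand) was at 440, 609, 642 and 458 CPM on the same days, against 0.755 to 6.70. Upk1b (chr16:38773184-38800328, minus strand) was at 205, 0, 187 and 311 CPM, against 0.349 to 1.10. Krt19 (chr11:100140810-100148665, minus strand) was at 234, 203, 181 and 164 CPM, against 1.41 to 3.08. The epicardial spots held 447 of the 810 UMIs of the 4 genes in all spots kept, or 55.2%, with 60 of 89 for Upk1b but 53 of 147 for Krt19, which was thus more often outside them. A UMI of Msln was found in 64 spots, of Upk3b in 69, of Upk1b in 36 and of Krt19 in 36, and all 4 genes met in 11 spots. These are positions on the mm10 genome from the GENCODE annotation of the GRCm38 build.

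Each rule gene was also measured in spots chosen without it, by the share of the remaining 3 genes, so that its own counts had no part in the choice. UMIs were summed per section for the chosen and the remaining spots, and edgeR's quasi-likelihood test with the section as a block was run on days 1, 7 and 14, with p-values adjusted over all genes by Benjamini-Hochberg. In the 100 spots chosen without Msln, 80 of them shared with the epicardial spots, Msln was higher by 5.56 on the log2 scale (SE 0.51, adjusted p = 1.08e-23), with 116 UMIs where 1.73 were expected from the remaining spots of the same sections. Upk3b was higher by 5.97 (SE 0.49, adjusted p = 8.89e-30) in spots chosen without it, with 108 UMIs against 2.09 expected. Krt19 was higher by 5.45 (SE 0.57, adjusted p = 2.41e-18), with 43 UMIs against 0.785 expected. Upk1b had 89 UMIs in all spots kept, under the minimum of 100 for a test, and 50 of them fell in the spots chosen by the other 3 genes against 0.321 expected, a ratio of 156 (95% interval 116 to 206, counting error only). Over all 4 sections most UMIs of Msln, Upk3b and Krt19 still lay outside the spots chosen without the gene, namely 179, 161 and 103 against 120, 114 and 44 inside, while for Upk1b 39 lay outside and 50 inside.

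Across all other genes, 11615 were tested between epicardial and other spots. On TMM-normalized sums 228 were higher (1.96%) and 423 lower (3.64%) at an adjusted p under 0.05 in edgeR's quasi-likelihood test. Day 4, with 3 epicardial spots, was described but not fitted. The 2 libraries of a section come from the same mouse and the fit had 3 sections. With the section as a block, the p-values rest on the spread of differences within sections over 3 mice that also differ in day. The fit had 2 residual degrees of freedom, so this spread was estimated mostly from all genes together. A small p-value therefore does not measure how 1 gene's own difference varied over the mice. The count of lower genes depended on the scaling, since TMM factors were 1.27 to 1.53 for epicardial and 0.613 to 0.826 for other spots. With total UMIs in place of TMM, 689 genes were higher and 27 lower, which took the higher share of calls from 35.0% to 96.2%, and the median log2 difference of all genes went from -0.24 to 0.59. All 228 higher genes were kept. Most of the spots were of day 7, and without that section 7 genes were higher and 0 lower, with 394 at an unadjusted p under 0.05 in edgeR. All 7 were among the 228.

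Genes of mesothelium that the rule had not used were higher in the epicardial spots. Of 25 listed, 16 could be tested, 13 were higher and 0 lower than in other spots, against a background of 1.96%, and their median log2 difference was 3.06 where that of all genes was -0.24. DESeq2 called 12 of the 16 higher and 0 lower. Comparing with other spots of the same depth range gave 15 higher, but the median log2 difference was smaller, at 2.42. There Nkain4 was at 4.39, Pkhd1l1 at 4.23, Slpi at 2.95 and C3 at 1.77, each smaller than the difference given below. Taking out the day 7 section left 4 higher, Nkain4, Gpm6a, Pkhd1l1 and Efemp1. The other 9 genes, Anxa8, Bnc1, Calb2, Dmkn, Krt7, Krt8, Lrrn4, Muc16 and Rspo1, had too few UMIs. The list was chosen with earlier results of these data known and marks mesothelium in general, not the epicardium alone, and Lrrn4, Muc16 and Bnc1, known markers of the resting layer, were among those not tested.

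Nkain4, which encodes a small membrane protein that interacts with the sodium pump, differed most of the genes on this list. Its 5, 1, 29 and 23 UMIs of days 1, 4, 7 and 14 gave 147, 102, 159 and 377 CPM, against 1.26 to 2.31 CPM in other spots. The log2 difference was 5.99 (SE 0.53, adjusted p = 1.28e-25). Its level in epicardial spots was above that in other spots in each of the 4 sections.

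Pkhd1l1, a large membrane protein of the fibrocystin family, was at 117, 0, 236 and 180 CPM over the same days, against 0.767 to 4.61 in other spots, a log2 difference of 5.57 (SE 0.55, adjusted p = 6.87e-20). Gpm6a was at 205, 102, 137 and 131 CPM on days 1, 4, 7 and 14 against 1.53 to 2.35, a difference of 5.40 (SE 0.54, adjusted p = 7.27e-20). Efemp1, a fibulin of the extracellular matrix, was at 176, 406, 143 and 245.5 CPM against 3.13 to 6.76, a difference of 4.30 (SE 0.50, adjusted p = 1.03e-14). These genes were each raised on every day on which they were seen, at 1 to 43 UMIs a section. Cldn15 rose by 3.84 (SE 0.55, adjusted p = 2.80e-09), and Igfbp6, a binding protein of insulin-like growth factor 2, rose by 3.04.

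Slpi, a secreted inhibitor of neutrophil proteases, was seen in the later sections. It was at 0, 0, 220 and 622 CPM by day, against 4.18 to 7.03 in other spots, and the log2 difference was 4.35 (SE 0.52, adjusted p = 6.41e-14). The 34116 UMIs of day 1 and 9849 of day 4 allow, at 3 counts, a level of up to 87.9 and 305 CPM. Krt18, a keratin of simple epithelia, rose by 3.08 (adjusted p = 0.00132) on 10 UMIs of day 7 and 2 of day 14. Podoplanin, Pdpn, rose by 2.40, the heparan sulfatase Sulf1 by 2.03 and the lubricating proteoglycan Prg4 by 1.87, although Prg4 was lower on day 1 (29.3 against 79.0 CPM, 1 UMI). Tbx18, Aldh1a2 and Ezr were not called, with log2 differences of 1.16, 1.53 and 1.12.

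The summed level of the list was 2579 CPM for day 1 (95% Poisson interval 2069 to 3178), against 430 in other spots. For days 4, 7 and 14 it was 7615 (5990 to 9545), 7292 (6905 to 7695) and 7890 CPM (7201 to 8627), against 519, 479 and 299. Complement C3 made up 929 of the 1973 UMIs of the list, and without it the levels were 1788, 4061, 3838 and 3994 CPM against 297, 304, 248 and 131. Spot by spot the groups overlapped. The lowest, median and highest values of epicardial spots were 643, 2672 and 5843 CPM for day 1 and 4330, 7081 and 11752 for day 4. They were 0, 5897 and 24710 CPM for day 7 and 0, 4286 and 20926 for day 14. Medians of other spots were 324, 353, 305 and 165 CPM, and their highest values were 5540, 18081, 13088 and 20619. A UMI of the list was found in 97 of the 100 epicardial spots and 5849 of the 7324 others.

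**Figure D2:**
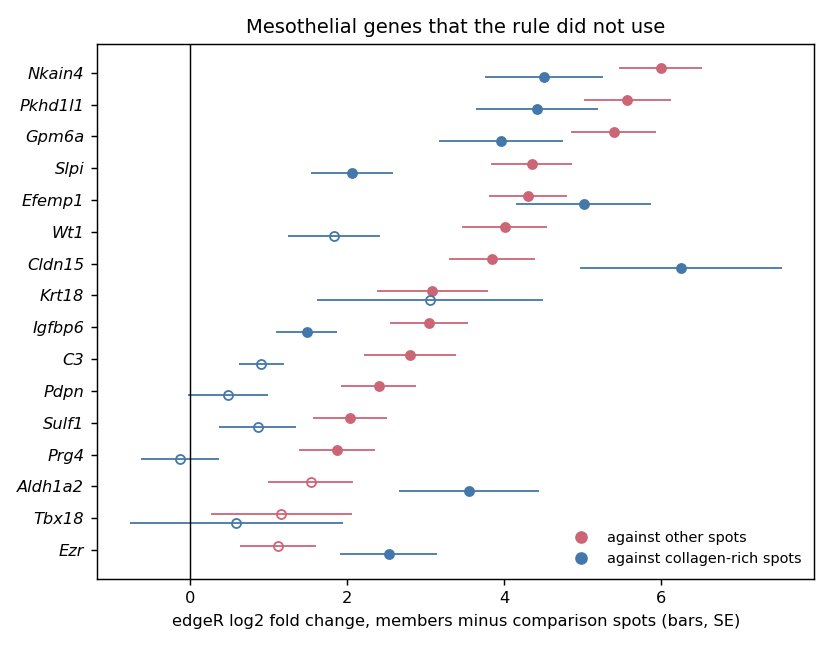
Mesothelial genes outside the rule, as the edgeR log2 difference of epicardial spots (members) from other spots and from collagen-rich spots, 1 point per gene and comparison with bars of 1 SE and open points where the test was not passed. The largest difference from other spots is that of Nkain4, at 5.99, and those of Tbx18, Aldh1a2 and Ezr did not pass.

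The level also followed the rank by which the spots were chosen. All spots kept were ranked by their share in the 4 genes, and the mesothelial list stood at 10441 CPM in ranks 1 to 25, 9995 in ranks 26 to 50, 3048 in ranks 51 to 75 and 4889 in ranks 76 to 100. It was 2066 CPM in ranks 101 to 200, 578 in ranks 201 to 410, and 405 in the spots without any UMI of the 4 genes. The fall was not even, and ranks 51 to 75 also held the highest level of fast skeletal muscle genes, 37234 CPM. The cardiomyocyte list ran the other way, from 16744 CPM in ranks 1 to 25 to 28727 in ranks 76 to 100 and 73403 in the spots without a UMI. The fibroblast list went from 15233 CPM to 4380. By the number of rule UMIs, the mesothelial list stood at 3893 CPM in the 21 epicardial spots with 1, 5308 in the 45 with 2 to 4, and 8850 in the 34 with 5 or more.

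**Figure D3:**
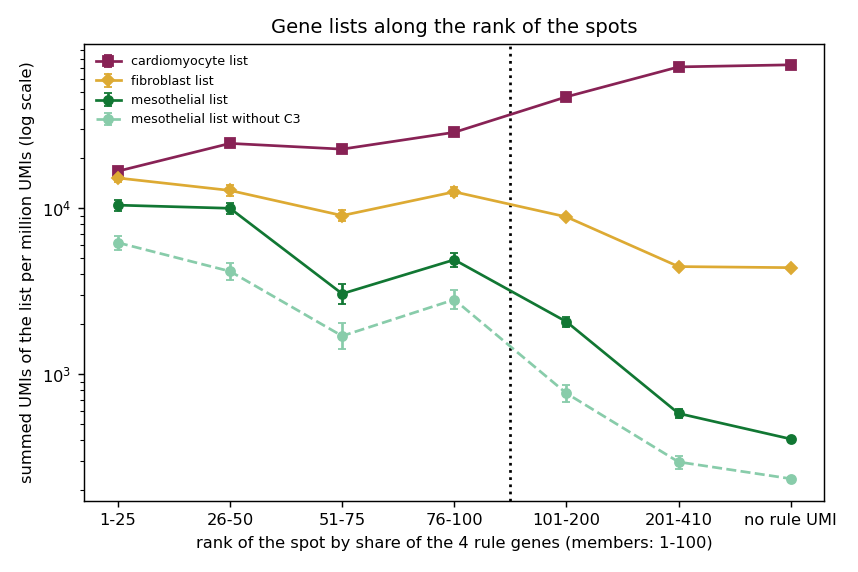
Summed levels of marker lists (vertical, CPM, log scale, exact Poisson 95% intervals) in spots ranked by their share of UMIs in the 4 rule genes (horizontal, bands of rank). Mesothelial genes outside the rule fall from 10441 CPM in ranks 1 to 25 to 405 in spots without a rule UMI, while cardiomyocyte genes run from 16744 to 73403.

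Of all genes tested against other spots, 1.96% were higher and 3.64% lower, which is the background for each further list compared with other spots. Among keratins, junction and apical genes, 4 of 11 tested were higher and 1 lower, with a median of 1.12. Besides Krt18, Cldn15 and Pdpn, these were Ildr2, a protein of tricellular junctions, which rose by 4.61 (SE 0.59, adjusted p = 5.65e-12), and Dsp, the desmoplakin of desmosomes, which fell by 2.54 (adjusted p = 4.85e-04). Dsp was at 205, 102, 54.9 and 131 CPM on days 1, 4, 7 and 14 against 311 to 357 in other spots. Its fall did not pass on total UMIs, like those of Cdh2, Ccn2, Des, Fabp4 and Ly6c1 below. Desmosomes also join cardiomyocytes at their ends, so this gene is not one of surface epithelium alone.

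Of the transcription factors and retinoid genes of the epicardium, 3 of 11 tested were higher and 0 lower, with a median of 1.15, and DESeq2 also called 3 higher. Wt1, the zinc finger factor of the epicardial layer (chr2:105126529-105173616, plus strand), had 2, 0, 41 and 8 UMIs by day, or 58.6, 0, 225 and 131 CPM. Other spots were at 3.39 to 7.25 CPM, and the log2 difference was 4.00 (SE 0.54, adjusted p = 9.55e-11). Without the day 7 section it was 3.78 with an adjusted p of 0.327.

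Aldh1a1, an enzyme that makes retinoic acid, rose by 2.84 (SE 0.47, adjusted p = 8.15e-07) and was at 176 to 203 CPM on the 4 days against 8.89 to 27.7. Aldh1a2, the main enzyme of the same step in the embryonic epicardium, missed the threshold (log2 1.53, SE 0.54, adjusted p = 0.0687). By day it was at 87.9, 305, 148 and 16.4 CPM, against 73.8, 15.6, 12.5 and 5.24 in other spots. Tbx18 had 5 UMIs in all epicardial spots, and Tcf21 and Gata4 were at differences of -1.14 and -1.45 that did not pass.

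Of secreted growth factors, Wnt modulators and guidance genes, 5 of 19 tested were higher and 0 lower, with a median of 0.70. Sema3d, a guidance semaphorin of the epicardium, rose by 2.46 (adjusted p = 0.0145) and Slit3, a ligand of Robo receptors, by 2.26 (adjusted p = 0.0366), both on 12 UMIs or fewer in all epicardial spots. Tgfb3 rose by 1.84 (SE 0.50, adjusted p = 0.0108), Mdk by 1.66 (adjusted p = 0.0317) and Igf1 by 1.63 (adjusted p = 0.0278). DESeq2 called 0 of the 19, with 7 at an unadjusted p under 0.05. Tgfb1 and Tgfb2, at -0.53 and 0.70, did not pass, with 8 UMIs or fewer each. Against other spots of the same depth range 0 of the 19 were called, with 4 at an unadjusted p under 0.05 in edgeR and a median of 0.36. Against collagen-rich spots, which are defined below, 1 was higher and 2 lower, with a median of -0.73. Of all genes in that comparison 1.63% were higher and 0.369% lower. Over all sections the summed list was at 2483 CPM against 4836 in collagen-rich spots.

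Most lubricating, antimicrobial and complement genes rose, with 9 of 14 tested higher, 0 lower and a median of 2.23. The acute phase protein Saa3 had 1, 0, 47 and 193 UMIs by day, or 29.3, 0, 258 and 3159 CPM, against 10.0 to 29.8 in other spots, a difference of 3.69 (SE 0.60, adjusted p = 5.10e-07). Cfb, factor B of the alternative pathway, rose by 3.92 (SE 0.48, adjusted p = 3.37e-13), from 6.27 to 15.4 CPM in other spots to 147, 406, 275 and 508 in epicardial spots on the 4 days. C3, the hub of all pathways, was at 791, 3554, 3454 and 3896 CPM against 133, 215, 231 and 168, a difference of 2.79 (SE 0.59, adjusted p = 3.00e-04). C4b rose by 2.70, C1s1 by 2.39 and C1ra by 2.06. Hp and Lcn2 did not pass, at 1.05 and 1.02, and Clu was at -0.93. C3, Slpi, Prg4 and Efemp1 stand on the mesothelial list too. Against the collagen-rich spots defined below, 2 of the 14 genes were higher and 0 lower, with a median of 0.75. Of all genes in that comparison 1.63% were higher and 0.369% lower. The summed list was at 2931 CPM against 8444 in collagen-rich spots on day 1. It was at 11676 against 3053 on day 4, 9071 against 4341 on day 7 and 14749 against 10607 on day 14.

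Matrix and mesenchymal genes went both ways. Of 24, 4 were higher and 2 lower, with a median of 1.25, while on total UMIs 15 were higher and 0 lower by edgeR. Those higher were Cd44, the hyaluronan receptor (2.42, adjusted p = 6.55e-05), the protease Mmp14 (2.18, adjusted p = 0.0479), the crosslinking enzyme Lox (1.80, adjusted p = 0.0139) and S100a6 (1.67, adjusted p = 0.0411). Lower were the N-cadherin Cdh2, which joins cardiomyocytes, by 2.17 (adjusted p = 0.00449), and Ccn2 by 1.74 (adjusted p = 0.0323). The collagens Col1a1, Col1a2 and Col3a1 did not pass, at 1.44, 1.62 and 1.68. Snai1, Snai2 and Twist1, factors of epithelial to mesenchymal transition, had 8 UMIs or fewer each and did not pass.

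Timp1, the metalloprotease inhibitor and growth factor at the centre of the study, was at 440, 1015, 307 and 1195 CPM by day, against 533, 544, 170 and 30.6 in other spots, so that it was lower in the first section and higher in the other 3. It did not pass, with a log2 difference of 0.97 (SE 0.56, adjusted p = 0.361). On total UMIs the difference was 1.77 with an adjusted p of 0.0460 by edgeR. With DESeq2 it was 1.08 (adjusted p = 0.650), and against other spots of the same depth range 0.16 (adjusted p = 0.913 by edgeR). Of the 7 genes of TIMP1 and its receptors, Cd82, a tetraspanin, rose by 2.47 (SE 0.57, adjusted p = 0.00145) and Cd44 as above, Lrp1, Cd63, App and Cd74 did not pass, and 0 were lower.

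The genes with the largest rises of those with at least 10 UMIs in each of the 3 sections, all higher in each section, were 9 where up to 12 could be named. They were C3 and, in order, Ptgis, the prostacyclin synthase (2.56, adjusted p = 8.76e-06), Igfbp5 (2.20, adjusted p = 0.00149), the lymphoid chemokine Ccl21a (2.01, adjusted p = 0.00209), Crip1 (1.88), Timp2 (1.84), S100a6, Rcn3 (1.47) and S100a10 (1.45). Ptgis was at 469, 406, 417 and 589 CPM on days 1, 4, 7 and 14 against 25.1 to 72.8, and Igfbp5 at 322, 1015, 1669 and 540 against 65.3 to 119. Both were several-fold higher on each day. Ccl21a has near-identical copies, so its counts are uncertain. DESeq2 did not call Rcn3 and S100a10, with adjusted p-values of 0.0575 and 0.0549. Against other spots of the same depth range Ccl21a and Rcn3 did not pass, at 0.59 (adjusted p = 0.425) and 0.75 (adjusted p = 0.211), while the other 7 did. Without day 7 the 9 did not pass, at log2 differences of 1.51 to 3.06 on the fewer sections and spots left.

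Genes of other cell types were counted in the same spots. In a spot, fewer cells of a type and less RNA per cell cannot be told apart. Of 12 cardiomyocyte genes, 10 were lower and 0 higher, against a background of 3.64%, with a median of -2.41. Ryr2, the calcium release channel, fell by 2.86 (SE 0.57, adjusted p = 1.17e-04) and Actc1 by 2.84 (SE 0.74, adjusted p = 0.00729). With total UMIs 2 of the 12 were lower (median -1.47), with DESeq2 12, and without day 7 0 by edgeR, with 2 at an unadjusted p under 0.05. The summed list was close to that of other spots on day 1, at 66714 CPM against 74611, and lower on day 4 (29851 against 61766), day 7 (15232 against 71838) and day 14 (22672 against 83155). On day 1 single genes were level, as in Tnnt2 with 5364 CPM against 5084. Cardiomyocyte RNA was thus present in the epicardial spots of each section.

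Against the same background of 1.96% higher and 3.64% lower, fibroblast genes were 1 of 12 higher and 0 lower, with a median of 0.78. The gene called was Cd248 (1.68, adjusted p = 0.0126). Of 10 macrophage genes only Lyve1, a receptor of resident macrophages and lymphatic endothelium, passed (2.35, adjusted p = 0.00155), and the median was 1.06. Endothelial genes were 2 of 10 lower, Fabp4 by 2.00 and Ly6c1 by 1.58, and 0 higher, with a median of -1.05. Of 8 smooth muscle genes Des was lower by 1.72 and 0 were higher. Of 4 adipocyte, 4 neutrophil and 3 lymphocyte genes tested, 0 passed in edgeR or DESeq2, with 1 of each list at an unadjusted p under 0.05 in edgeR, and the medians were -0.03, 1.12 and 0.83. The lung epithelial markers had 2 UMIs in all epicardial spots, both on day 4, and none could be tested. The plain log2 ratio of the summed lists was lowest on day 1 and highest on day 14 for macrophage genes (0.73, 1.21, 1.69 and 3.23 on the 4 days) and for fibroblast genes (0.62, 0.67, 0.88 and 2.56). Macrophage levels in epicardial spots were 1085, 4874, 4821 and 5058 CPM by day, against 654, 2102, 1490 and 538 in other spots. Fibroblast levels were 3986, 9646, 12409 and 17319 CPM against 2585, 6079, 6752 and 2934. Against other spots of the same depth range the macrophage and fibroblast medians in the fit were 0.38 and 0.17. These lists also depended on the scaling. On total UMIs 7 of 12 fibroblast and 7 of 10 macrophage genes were higher, 0 endothelial genes were lower by edgeR with 1 at an unadjusted p under 0.05, and the smooth muscle and adipocyte medians were positive, at 0.86 and 0.67.

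**Figure D4:**
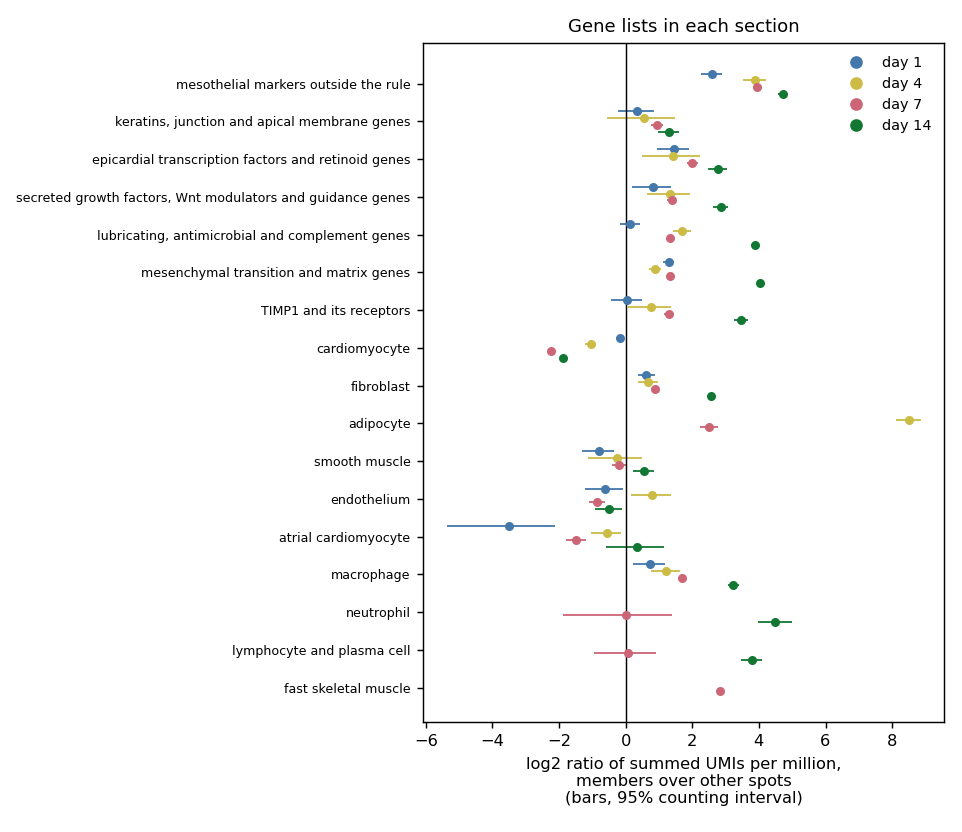
Log2 ratio of the summed CPM of each gene list in epicardial spots (members) over other spots, 1 point per section with bars of the 95% counting interval, without sections of under 3 UMIs. The mesothelial list lies right of 0 in all 4 sections (2.58 to 4.72) and the cardiomyocyte list left of it (-2.24 to -0.16), while the endothelium list lies on both sides.

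The day 7 spots were of more than one kind. Fast skeletal muscle genes, which are not those of heart muscle, were 3 of 10 higher (Myh2, Pvalb and Actn3), with a median of 2.01, and their UMIs lay almost wholly on day 7, with 0, 0, 3892 and 1 by day. Of the 58 epicardial spots of day 7, 13 held 91 to 630 such UMIs, with a median of 242, and the remaining 45 held 0 to 3. A further 105 other spots of day 7 held 10 or more. In the 13 spots the mesothelial list was at 4085 CPM, against 9004 in the 45, and the fibroblast list at 4369 against 16703. The macrophage list was at 1341 against 6679 CPM, the cardiomyocyte list at 20569 against 12382 and the adipocyte list at 1814 against 101. Actc1 of the cardiomyocyte list went the other way, at 946 against 1390 CPM. Whether that list's sum in the 13 spots came from heart muscle was not tested. Of the 115 UMIs of the adipocyte list in the 13 spots, 113 were of Car3, against 1 of 12 in the 45. Both kinds of spot thus carried mesothelial RNA, the 45 more of it. All 25 UMIs of the sarcolipin gene Sln were in the 13 spots. The source of the skeletal muscle RNA was not tested. Leaving out all spots with 10 or more such UMIs gave 307 higher and 404 lower genes, of which 212 and 325 were among those above, and left 13 of 16 mesothelial genes higher.

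**Figure D5:**
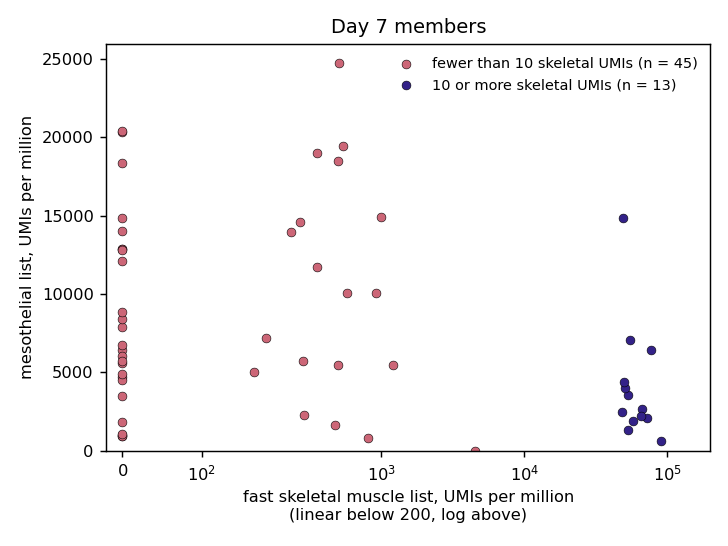
The 58 epicardial spots (members) of day 7 by their fast skeletal muscle UMIs (horizontal, CPM, linear below 200 and log above) and mesothelial UMIs outside the rule (vertical, CPM). The 13 spots with 91 to 630 skeletal muscle UMIs stand apart from the 45 with 0 to 3.

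Genes of some other cell types were uneven between sections. UMIs of the adipocyte list were 0, 77, 127 and 1 by day, and those of day 4 lay in 2 of its 3 spots (0, 24 and 53 UMIs). Of the 127 on day 7, 113 were of Car3 in the spots with skeletal muscle RNA. The day 7 level of this list thus rests mostly on 1 gene in those spots. The summed adipocyte list was at 7818 CPM on day 4 against 21.7 in other spots, a log2 ratio of 8.49, and at 697 against 123 on day 7, a ratio of 2.50. Although none of its 4 genes passed in the fit, 4 were higher with 25 spots taken per section, 3 with 200 spots and 2 with day 4 included. Neutrophil UMIs were 36 on day 14 and 1 to 4 on the other days, and lymphocyte and plasma cell UMIs 85 against 0 to 11. Of the genes on the atrial list, Sln was higher by 2.24, but its day 7 UMIs lay in the spots with skeletal muscle RNA, as given above. Nppa, the atrial natriuretic peptide that stressed ventricle also makes, was lower by 3.95 (SE 0.66, adjusted p = 9.30e-07). The summed atrial list had log2 ratios to other spots of -3.49, -0.58, -1.48 and 0.35 by day.

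The 8 genes with the largest falls in the fit had 0 UMIs in epicardial spots of days 1, 7 and 14, so only a bound can be given, with 3 UMIs over the group as the floor. Osgepl1, of transfer RNA modification, was at least 3.46-fold lower, with 10.4 UMIs expected. Homer1, a scaffold protein, was at least 2.15-fold lower and Kcnj2, the inward rectifier potassium channel of cardiomyocytes, at least 1.98-fold. Slc25a33, Ptrh2, Mir99ahg, Gm49477 and Gm31659 were at least 1.44-fold to 1.75-fold lower. On day 4, outside the fit, Gm49477 had 2 UMIs and Osgepl1 had 1, or 203 and 102 CPM against 13.9 and 36.4 in other spots, so that both were higher there. Only 1 of the 8 was lower with DESeq2, 1 with total UMIs and 0 without day 7.

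Because the surface layer lies on connective tissue, the epicardial spots were also set against collagen-rich spots, the same number per section of other spots with the highest share of UMIs in Col1a1, Col1a2 and Col3a1. These spots were chosen by those 3 genes, which were not tested, and had a median of 2201 UMIs, near that of the epicardial spots. Of 11370 genes, 185 were higher in epicardial spots (1.63%) and 42 lower (0.369%). DESeq2 called 36 and 3. Of the 185 and 42, 47 and 24 were kept without the spots with skeletal muscle RNA.

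Mesothelial genes remained apart from collagen-rich spots in this fit, with 9 of 16 higher, 0 lower and a median of 2.29. The collagen-rich spots were drawn from other spots, so the spots richest in the 4 rule genes could not be among them. They held 8 UMIs of these genes in all, and the direction can follow in part from the choice. Cldn15 had no UMI in collagen-rich spots of days 1, 7 and 14, and Efemp1, Pkhd1l1 and Gpm6a had none on days 1 and 7. Nkain4 was higher by 4.50 (SE 0.75, adjusted p = 6.25e-07), Efemp1 by 5.01 (SE 0.86, adjusted p = 1.46e-06), Pkhd1l1 by 4.41 (adjusted p = 2.91e-06) and Gpm6a by 3.96 (adjusted p = 9.60e-05). Aldh1a2 passed here (3.55, adjusted p = 0.00577), as did Ezr (2.53), Slpi (2.06) and Igfbp6 (1.49), while Wt1 did not (1.83, adjusted p = 0.0839). The calls depended on the tool, since DESeq2 made 0 of the 16, with 8 at an unadjusted p under 0.05, and without day 7 edgeR made 1. The summed list was at 2579 CPM against 2323 on day 1, a log2 ratio of 0.15 with an interval of -0.33 to 0.64, at 7615 against 416 on day 4, 7292 against 1387 on day 7 and 7890 against 5199 on day 14. The summed list was thus several-fold higher on days 4 and 7, while on day 1 the interval included 0.

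Muscle genes were higher and scar genes lower than in collagen-rich spots. Those spots were chosen for collagen, so genes that go with collagen tend to be high in them and muscle genes low. The directions therefore follow in part from the choice and do not set epicardial spots apart by themselves. Over all sections the cardiomyocyte list stood at 8364 CPM in collagen-rich, 23432 in epicardial and 73125 in other spots. Of 12 cardiomyocyte genes 10 were higher, with a median of 1.60. Among the genes named by size, Igfbp5 was higher by 3.32 (SE 0.43, adjusted p = 8.86e-12) and the rest were muscle genes such as Ckm (3.13), Tcap (2.96) and Ttn (2.81), with Atp1b1, a subunit of the sodium pump (2.75). Of these 8 genes 6 were also called by DESeq2 and 5 without day 7, where Igfbp5 was at 1.83 with an adjusted p of 0.803. Pgam2 and Ldb3 (2.95 and 2.93) did not pass without the spots with skeletal muscle RNA, at adjusted p-values of 0.192 and 0.0603. There Ckm was at 1.62, Ttn at 1.77, Eno3 at 1.83 and Tcap at 2.33, still called but smaller. Igfbp5 and Atp1b1 changed little, at 3.21 and 2.80. Of the day 7 UMIs of Ckm in epicardial spots, 894 lay in the 13 spots with skeletal muscle RNA and 69 in the remaining 45. Fast skeletal muscle genes were 9 of 10 higher. Without the spots with skeletal muscle RNA 0 of 7 tested were, with 2 at an unadjusted p under 0.05. Those spots were left out by UMIs of these same genes, so this loss follows from the choice and is no test. DESeq2 called 0 of the 10.

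Lower than in collagen-rich spots were Col8a1 (-2.81), the matricellular Ccn2 (-2.21) and Postn (-1.97), the chemokine Cxcl12 (-2.20), the small proteoglycans Lum (-1.50) and Bgn (-1.49), Col5a1 (-1.42) and Timp1 (-1.49). Of these 8 genes 3 were also called by DESeq2 and 1, Bgn, without day 7. Postn, periostin, a mark of activated fibroblasts, was at 58.6, 1117, 1428 and 900 CPM on days 1, 4, 7 and 14, against 406, 2082, 7234 and 2971 in collagen-rich spots (SE 0.30, adjusted p = 3.68e-08). Timp1 was at 440, 1015, 307 and 1195 CPM against 2139, 1735, 1420 and 1961 (SE 0.30, adjusted p = 9.17e-05). Both were lower in each of the 4 sections. For Timp1 DESeq2 gave an adjusted p of 0.0522, and edgeR without day 7 one of 0.671. Of 21 matrix genes tested 3 were lower and 0 higher, with a median of -0.64.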

How the data were processed

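UMI counts per gene and spot of 4 Visium sections, 1 per day, were used as the authors deposited them, as raw counts without normalization. Per the labels' processing notes they were made with Space Ranger 1.3.0 on mm10, and Seurat 4.1.1 is also named there. The 32285 genes were read, spots under 500 UMIs or over 1% hemoglobin (8 genes) were left out, and the 100 spots with the highest share of Msln, Upk3b, Upk1b and Krt19 were taken as epicardial. The members and gene lists were chosen with earlier results of these data known. Sections share 2538 of 3178 distinct barcodes because barcodes are slide positions, which were not used.

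UMIs were summed per section over the epicardial and the comparison spots. Epicardial sums held 34116, 9849, 182122 and 61088 UMIs on days 1, 4, 7 and 14, and those of other spots 9103874 to 15641836. Sections with at least 5 epicardial spots entered the test, which left 3 sections and 6 libraries, with 2 residual degrees of freedom. Genes with at least 100 UMIs were fitted with edgeR 4.0.16 and limma 3.58.1 in R 4.3.3 (TMM, section as block, robust quasi-likelihood), leaving out the genes that chose the spots, and p-values were adjusted by Benjamini-Hochberg over all genes of the fit. The common dispersion was 0.0891 against other and 0.0654 against collagen-rich spots. Log2 differences from the fit are relative to TMM and differ from ratios of the printed CPM. Levels per day carry exact Poisson 95% intervals (scipy 1.17.1, Python 3.11.15), which cover counting error only.

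Tested on simulated counts of the comparison with other spots (11615 genes), the fit called 21 of 100 genes raised and 21 of 100 lowered 4-fold, with 1 false call, and 100 and 83 of those changed 16-fold, with 2 false calls. Against collagen-rich spots it called 51 and 11 at 4-fold (11113 genes) and 100 and 45 at 16-fold (11123 genes), with 1 false call each. The simulated counts had 1 mean per gene over all libraries and the common dispersion for every gene, with as many genes raised as lowered. They held no difference between sections and no shift in scaling, so the false calls do not cover errors from these. The genes named by size were those with the 12 largest rises and 8 largest falls against other spots, and 8 each way against collagen-rich spots, at an adjusted p under 0.05, with at least 10 UMIs where they were higher in 3 sections and 1 direction throughout. List members and Timp1 were named besides, except some genes, and a list whose UMIs were mostly of such a gene, that are not reported here. Alternatives were DESeq2 1.42.0, total UMIs, other gene and spot filters, other numbers and rankings of spots, no block, each section left out, and others added after the data were seen.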

Additional observations from a re-analysis of the deposited data

Results flagged for a closer look

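In 2 gene lists the epicardial spots of some sections lay above and those of others below the other spots of the same section. The difference between sections was not tested, since each day is 1 mouse. Smooth muscle genes had a log2 ratio of summed CPM of -0.81 on day 1 (37 UMIs) and 0.55 on day 14 (88 UMIs). Endothelial genes had ratios of -0.62, 0.79, -0.86 and -0.50 in order of day, where the day 4 value rests on 24 UMIs of 3 spots.

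Spots left out for hemoglobin also held the genes that chose the epicardial spots. Of 1500 such spots with at least 500 UMIs, 76 had a share at or above that of the last spot taken, namely 1, 4, 16 and 55 in order of day. The level of the 4 genes over all 1500 was 61.5 CPM (95% Poisson interval 54.9 to 68.6), against 15.8 CPM (14.7 to 16.9) over all 7424 spots kept, epicardial spots included. On day 14 it was 96.6 CPM against 10.6.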

How the results depend on the processing

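Against other spots the edgeR counts were 228 genes higher and 423 lower. DESeq2 gave 127 and 114, total UMIs 689 and 27, genes of at least 1000 UMIs 51 and 20, and genes of at least 10 UMIs 382 and 259. Counts higher were 102 with 50 spots, 365 with 200 spots and 135 against other spots of the members' depth. Counts lower were 647 without the section block, 260 with spots of at least 1000 UMIs, 175 in spots chosen without Upk3b and 232 in spots chosen without Krt19. Leaving out 1 section gave 7 to 338 higher and 0 to 684 lower, the lowest without day 7 (394 genes at an unadjusted p under 0.05 in edgeR).

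Against collagen-rich spots they were 185 and 42. DESeq2 gave 36 and 3, no block 60 and 9, 50 spots 20 and 11, 200 spots 442 and 196, and leaving out spots with skeletal muscle RNA, chosen after seeing the data, 47 and 27. Counts higher were 117 with total UMIs and 83 without the hemoglobin filter. Counts lower were 72 with genes of at least 1000 UMIs, 64 when spots were ranked by the lower bound of the share and 109 with 25 spots per section. Leaving out 1 section gave 33 to 191 higher and 4 to 59 lower.

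Single genes that changed sign against other spots were Sln, Actn3 and Aldh1a2 without day 7 and Timp1 without day 14. With 1 section left out in turn the log2 difference ranged from -1.83 to 2.25 for Sln, -2.92 to 1.98 for Actn3, -0.21 to 2.47 for Aldh1a2 and -0.36 to 2.10 for Timp1. With 50 spots the genes that changed sign were Sln (-0.70), Myh2 (-0.44), Pvalb (-0.63) and Actn3 (-0.10), without the hemoglobin filter Pvalb (-0.36) and Actn3 (-0.050), and with 25 spots per section Sln (-0.29), Myh2 (-0.028) and Pvalb (-0.082). Against collagen-rich spots they were Mylpf (-3.23 to 4.95) and Pvalb (-0.13 to 3.79) without day 7, with the range over sections left out, and, without spots with skeletal muscle RNA, Myh1 (-2.43), Tnnc2 (-1.07), Tnni2 (-1.27), Tnnt3 (-1.34), Atp2a1 (-0.70), Mylpf (-3.13) and Pvalb (-1.21). The spots with skeletal muscle RNA were left out by UMIs of the fast skeletal muscle genes. Sign changes of these genes without those spots therefore follow in part from the choice. For the other sign changes the cause was not tested. Of the single-gene values under alternatives, 1142 kept direction and side of the threshold against other spots, 381 lost the call, 19 gained one and 13 changed sign, and against collagen-rich spots these were 713, 174, 0 and 9. Msln, Upk3b and Krt19 in spots chosen without them kept direction and call under all alternatives run.

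Day 4 was not left out in turn because its 3 spots were not in the fit, and including it kept both pairs of counts within 1.5 times. The section block of the fit pairs the 2 libraries of 1 mouse, and the counts without it stand above. In simulated counts 21 of 100 genes raised 4-fold were called against other spots and 51 of 100 against collagen-rich spots.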

Other observations

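Further genes were looked up after their values were seen, so their differences are descriptions that the p-values do not support independently. Among the larger rises against other spots were Col6a5, a collagen VI chain (log2 4.88, SE 0.53, 64 UMIs in epicardial spots), Myrf, a membrane-bound transcription factor (4.69), the complement protease C2 (4.32) and the B cell chemokine Cxcl13 (3.98), whose 26 UMIs lay on days 7 and 14. Bst1 rose by 3.87, Ptgs1, a cyclooxygenase, by 3.34, Adgrd1 by 3.33 and Spon2 by 3.09.

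Marco and Fcna, genes of macrophage subsets, rose by 3.42 and 3.27. Marco had 0 UMIs on days 1 and 4, 22 on day 7 and 10 on day 14, and Fcna 0, 0, 68 and 9. Col6a5, Fcna and Spon2 also passed against collagen-rich spots, at 2.05, 2.71 and 1.73.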
